A study of Mus musculus with 6 samples.

Results

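The coat of caveolae was described here through 7 genes of 46095 in the deposited table, which are the caveolin genes Cav1 and Cav2, the cavin genes Ptrf, Sdpr and Prkcdbp (older names of Cavin1, Cavin2 and Cavin3, and the ones the table uses) and the partner genes Ehd2 and Pacsin2. They were chosen by symbol as a known family, with earlier results of the same comparison between flavonoids and untreated cells in view, so their levels in that comparison stand as a description and their calls support nothing. RNA was measured in 3T3-L1 cells, a mouse line of preadipocytes much used to study how fat cells form, here labelled adipocytes and taken at 8 days after differentiation. One group of 3 samples received 0.125 μg/mL of flavonoids of the plant Smilax glabra, and the other group of 3 was left untreated. Both groups are the same cell line. Separate cultures are not named for the replicates, so p-values reflect only how far these samples scatter, and that scatter could be technical. The values are FPKM, fragments per kilobase of transcript scaled to the number of mapped fragments, which allow levels of different genes to be set side by side per length.

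Caveolae are small flask-shaped pits of the plasma membrane that are rich in cholesterol and are particularly common in fat, muscle and blood vessel cells. Caveolins are inserted into the inner leaflet of the membrane, the cavins form an outer coat on top of them, and EHD2 and PACSIN2 bind the neck of the pit, where they act on its shape and stability. In adipocytes caveolae are known for flattening when the membrane is stretched and for carrying insulin receptors.

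With flavonoids the caveolin transcripts stood at 0.400 (Cav1) and 0.391 (Cav2) times their untreated mean FPKM, while the cavin and partner transcripts ranged between 0.614 (Sdpr) and 1.11 (Pacsin2) times theirs. All 7 genes averaged 1 FPKM or more, the minimum for entering the fit. In that fit, limma on log2(FPKM + 1) over 11464 genes with an adjusted p under 0.05 as the call, 2 of the 7 genes (Cav1 and Cav2) were called lower and 0 were called higher. Over all tested genes 5.13% were called lower and 4.86% higher. The 3 flavonoids values lay below the 3 untreated values for 5 of the genes and above them for 1, against 17.3% and 17.0% of all tested genes. Nothing is read from these shares, since the genes were taken with this comparison known. The median log2 change of the 7 genes was -0.52, beside -0.02 over all tested genes. In RNA of whole cultures, fewer cells of a type and less RNA per cell cannot be told apart.

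**Figure D1:**
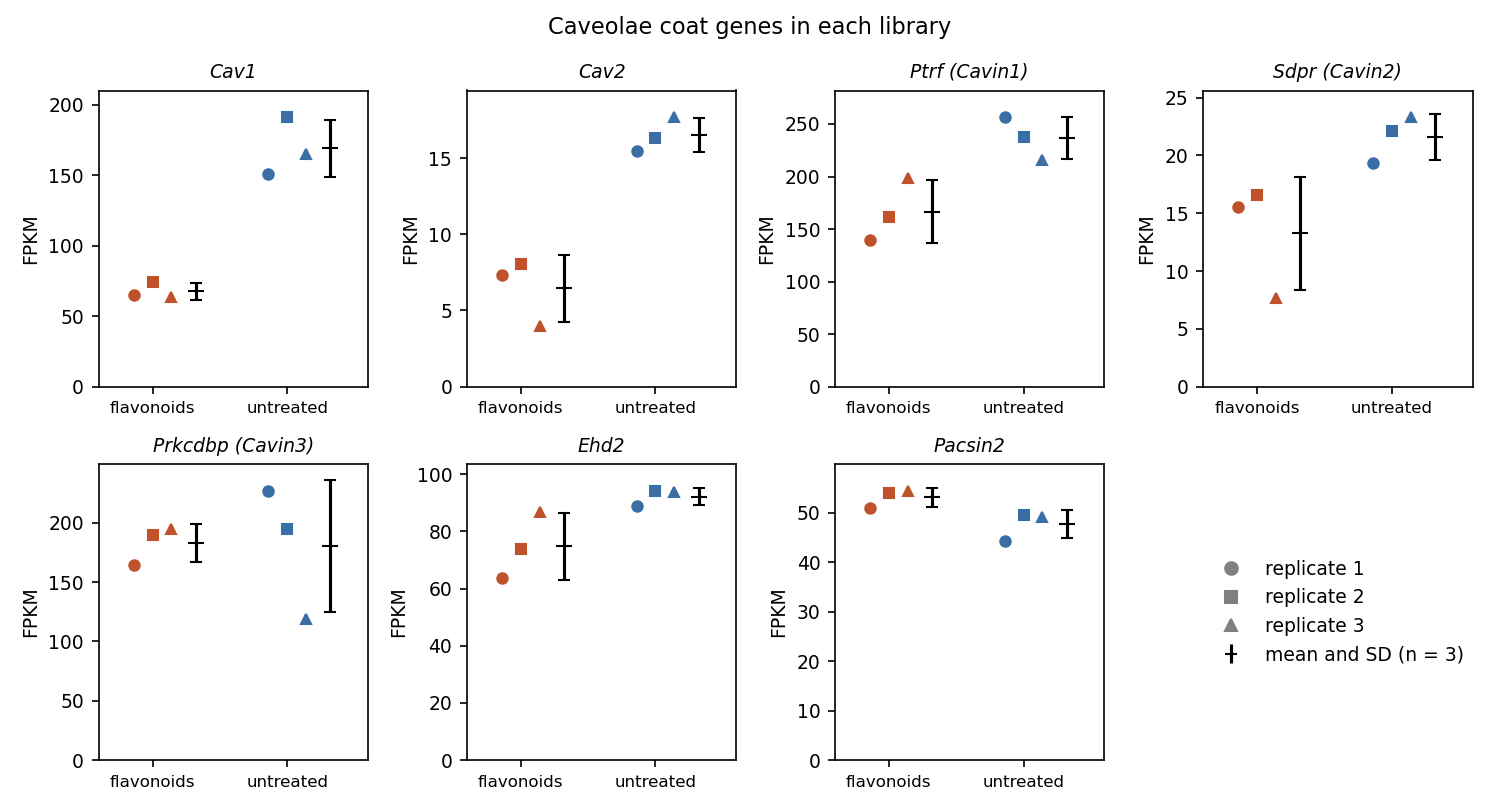
Level of each caveolae coat gene in FPKM, with 1 point per library, flavonoids on the left and untreated on the right, and the mean with its SD beside the points (n = 3 each). Cav1 and Cav2 show the widest gap between the groups relative to their untreated level, Prkcdbp overlaps, and flavonoids replicate 3 (triangle) is the lowest flavonoids library for Cav2 and Sdpr and the highest for Ptrf and Ehd2.

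Cav1 encodes caveolin-1, without which cells outside muscle form no caveolae. It measured 64.9, 74.2 and 63.6 FPKM in flavonoids replicates 1, 2 and 3, and 151, 191 and 165 FPKM in untreated replicates 1, 2 and 3. The groups did not overlap, and no other coat gene had so wide a gap between them in FPKM. The means were 67.5 ± 5.80 FPKM with flavonoids and 169 ± 20.4 FPKM untreated (SD, n = 3 each), a level 2.50-fold lower with flavonoids. The fitted log2 change was -1.31 (SE 0.13) on the log2(FPKM + 1) scale, and 33 of the 11464 tested genes had a lower one.

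Cav2 encodes caveolin-2, which joins caveolin-1 in mixed oligomers and needs it to reach the cell surface. It measured 7.34, 8.07 and 3.95 FPKM with flavonoids and 15.4, 16.3 and 17.7 FPKM in untreated cells. Flavonoids replicate 3 was lower than the other flavonoids libraries, and the groups did not overlap. The means were 6.45 ± 2.20 FPKM with flavonoids and 16.5 ± 1.12 FPKM untreated (SD, n = 3 each), and the fitted log2 change was -1.28 (SE 0.22). Without flavonoids replicate 3 it was -1.01 and still called. The call was lost without a filter on low values and without untreated replicate 2, with log2 changes of -1.28 in both. The lowest library rested on 269 recovered fragments, whose 95% Poisson interval of 3.49 to 4.45 FPKM covers counting error only.

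Cav1 and Cav2 are neighbours on mouse chromosome 6 and lie on the same strand (GRCm38, GENCODE M21). Cav2 runs from 17281185 to 17289115 and Cav1 from 17306335 to 17341452, with 17219 bases between them. Their promoters are shown because the genes lie side by side and had similar changes. Each run holds 250 bases before and 50 bases after a RefSeq transcription start (GRCm38.p6, plus strand, 5′ to 3′), and capitals mark matches on either strand to any of the motifs named next. The first is Cav2 at chr6:17280935-17281234, and the second is Cav1 at chr6:17306085-17306384.
Cav2: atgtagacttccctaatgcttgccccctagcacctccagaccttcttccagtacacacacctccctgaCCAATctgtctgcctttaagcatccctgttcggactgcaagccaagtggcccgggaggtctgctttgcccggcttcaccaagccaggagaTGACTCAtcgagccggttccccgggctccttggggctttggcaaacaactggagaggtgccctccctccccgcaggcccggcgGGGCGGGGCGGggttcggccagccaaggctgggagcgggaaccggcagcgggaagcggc
Cav1: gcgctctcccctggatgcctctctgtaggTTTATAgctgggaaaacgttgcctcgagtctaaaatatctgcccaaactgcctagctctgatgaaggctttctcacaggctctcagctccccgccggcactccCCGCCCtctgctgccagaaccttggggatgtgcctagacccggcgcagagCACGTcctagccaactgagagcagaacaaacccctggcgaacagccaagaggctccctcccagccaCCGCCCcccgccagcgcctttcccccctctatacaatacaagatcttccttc

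The 9 motifs searched were the GC box (GGGCGG), the CCAAT box (CCAAT), the TATA box (TATAAA), the AP-1 site (TGANTCA), the hypoxia response core (ACGTG), the CRE core (TGACG), the ATF4 and C/EBP composite site (TGATGNAA), the FOXO site (TGTTTAC) and a sterol response element (TCACNCCAC). The Cav2 window held 2 GC boxes that share a base, between -9 and 2 from the start, as well as 1 CCAAT box at -182 to -178 and 1 AP-1 match at -92 to -86. The Cav1 window held 2 GC boxes at -118 to -113 and at -2 to 4, 1 hypoxia core at -68 to -64 and 1 match to the TATA letters at -221 to -216, on the minus strand. Among 32851 RefSeq promoter windows of the same length, 35.7% held a GC box, 37.4% a CCAAT box, 19.6% the hypoxia core, 13.6% the TATA letters and 7.81% an AP-1 match. The GC box is thus the only one of these motifs that both printed windows held, and it is common. The CRE core, the ATF4 composite site, the FOXO site and the sterol element, held by 20.8%, 3.97%, 3.65% and 1.24% of all windows, had no match in either. A second Cav1 window, at the start inside the gene (chr6:17307390-17307689), held none of the 9. The windows of Cav2 and of the upstream Cav1 start were 64.3% and 59.3% G and C, above the median of 52.7% over all windows. Windows were found for 6 of the 7 genes, and every window of Cav2, Ptrf, Sdpr and Ehd2 held a CCAAT box. The Ptrf windows, from 100970566 and from 100970568, are nearly the same stretch. Both Cav1 windows and the Pacsin2 window from 83432801 on chromosome 15 held no CCAAT box, while the other Pacsin2 windows did. The Sdpr window was the poorest of all the windows found in G and C, at 43.3%.

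The genes around the caveolin pair had estimates of both signs. Of 9 listed neighbours on chromosome 6, 5 reached a mean of 1 FPKM, and of these 0 were called lower and 1 higher, beside 5.13% and 4.86% of all tested genes. That gene was St7, a gene named as a suppressor of tumorigenicity, which rose to 8.63 ± 0.426 FPKM with flavonoids, against 5.87 ± 0.357 FPKM untreated (SD, n = 3 each; log2 change 0.49, SE 0.12, limma adjusted p = 0.0374). Tes, which encodes a focal adhesion protein and lies on the Cav2 side, measured 9.76 ± 0.423 FPKM with flavonoids and 13.1 ± 1.48 FPKM untreated (limma adjusted p = 0.0875). Met, the receptor of hepatocyte growth factor and the next gene after Cav1, measured 5.38 ± 1.65 FPKM with flavonoids and 4.65 ± 1.53 FPKM untreated (limma adjusted p = 0.695). Capza2, which encodes a subunit of the actin capping protein, measured 57.4 ± 14.4 FPKM with flavonoids and 81.5 ± 5.35 FPKM untreated (limma adjusted p = 0.107). Mdfic had a limma adjusted p of 0.127 and a log2 change of 0.34.

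**Figure D2:**
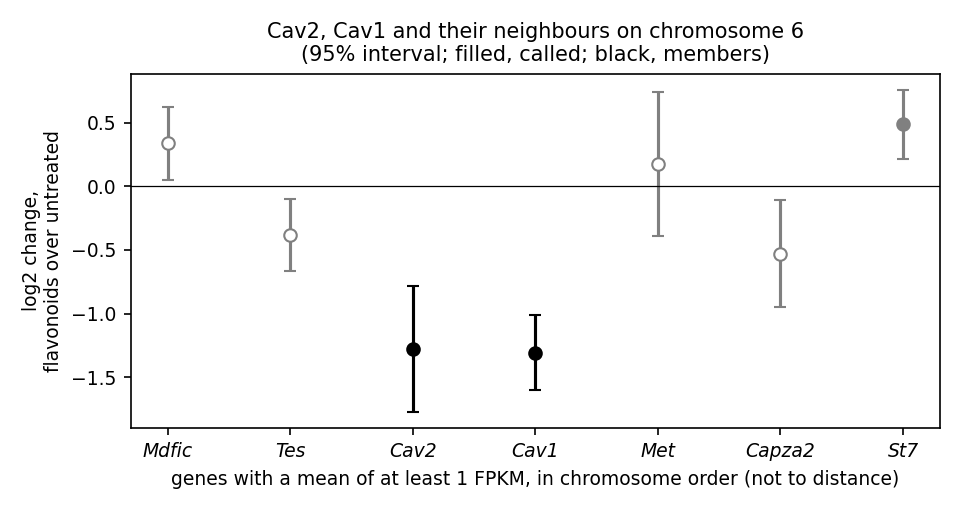
Fitted log2 change (flavonoids over untreated, log2(FPKM + 1) scale) with its 95% interval for the tested genes around Cav2 and Cav1, in their order along chromosome 6 and not to distance. Cav2 and Cav1, at -1.28 and -1.31, lie below their neighbours, whose estimates run from -0.53 for Capza2 to 0.49 for St7.

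The cavins showed smaller differences than the caveolins, and 0 of the 3 were called, beside 5.13% lower and 4.86% higher of all tested genes. Ptrf encodes cavin-1, which is required together with caveolin-1 to build caveolae. It measured 139, 162 and 198 FPKM in flavonoids replicates 1, 2 and 3, and 256, 238 and 216 FPKM in untreated cells. The groups did not overlap, but flavonoids replicate 3 came close to untreated replicate 3. The means were 166 ± 29.9 FPKM with flavonoids and 237 ± 20.1 FPKM untreated (SD, n = 3 each), and the log2 change was -0.52 (SE 0.15). Without untreated replicate 3 it was -0.58 and called. Ptrf lies on chromosome 11, minus strand, from 100956733 to 100970887.

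Sdpr encodes cavin-2, which binds phosphatidylserine and widens or stretches the caveolar membrane. It measured 15.5, 16.6 and 7.66 FPKM with flavonoids and 19.4, 22.1 and 23.3 FPKM in untreated cells. Flavonoids replicate 3 was again set apart below the other flavonoids libraries, and the groups did not overlap. The log2 change was -0.73 (SE 0.25) with no call, and -0.40 without that library. With each library's trend over gene length removed, Sdpr was called at -0.71, as was Ptrf at -0.50. Neither was called when the replicate block was added to that fit. Sdpr is on chromosome 1, plus strand, from 51289126 to 51302960.

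Prkcdbp encodes cavin-3, named for its binding to protein kinase C delta. It measured 164, 189.8 and 195 FPKM with flavonoids and 227, 195 and 119 FPKM in untreated cells. The untreated libraries enclosed all 3 flavonoids values, with means of 183 ± 16.4 FPKM with flavonoids and 180.3 ± 55.3 FPKM untreated (SD, n = 3 each). The log2 change of 0.07 had a 95% interval of -0.44 to 0.57, and its sign turned without untreated replicate 3 (-0.20) and with quantile normalization (-0.0021). Prkcdbp had the shortest length implied by its FPKM steps among the 7 genes, 1032 bases, against 2638 to 5141 bases for the others. The untreated libraries differed in how levels leaned with gene length, by -0.12, 0.02 and 0.16 log2 units per doubling of length in replicates 1, 2 and 3, and the flavonoids libraries by -0.01, -0.02 and -0.03. With this trend removed the log2 change of Prkcdbp was 0.02. Prkcdbp is on chromosome 7, minus strand, from 105480083 to 105482300, and an annotated gene on the opposite strand, Gm45667, overlaps its exons. Whether counting used strand is not stated, so reads of the pair cannot be told apart.

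The transcripts of the neck proteins had smaller fitted changes than those of the caveolins, and of opposite sign. Ehd2 encodes an ATPase of the dynamin superfamily that holds caveolae at the surface. It measured 63.7, 73.8 and 86.9 FPKM with flavonoids and 88.7, 94.2 and 93.6 FPKM in untreated cells. The groups did not overlap, by a margin of less than the spread within flavonoids. The log2 change was -0.31 (SE 0.13), with a 95% interval of -0.61 to -0.0050 and no call. It was -0.20 without flavonoids replicate 1 and -0.42 without flavonoids replicate 3, both with no call. Without flavonoids replicate 3 and with the trend over gene length removed, it was -0.38 and called, a setting chosen after seeing the data. Pacsin2 encodes syndapin-2, an F-BAR protein that bends membranes. It measured 51.0, 54.0 and 54.4 FPKM with flavonoids and 44.4, 49.6 and 49.1 FPKM in untreated cells, the only one of the 7 genes whose flavonoids values all lay above the untreated ones. Its log2 change of 0.15 (SE 0.11) had a 95% interval of -0.09 to 0.39 and no call. Ehd2 is on chromosome 7 from 15946958 to 15967567 and Pacsin2 on chromosome 15 from 83375607 to 83464606, both on the minus strand.

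**Figure D3:**
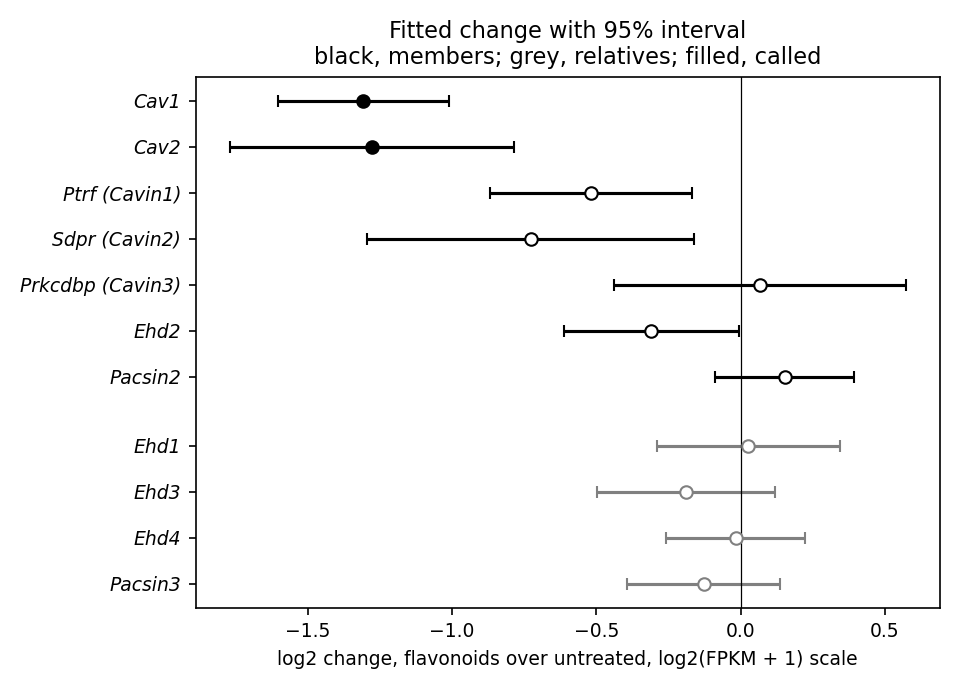
Fitted log2 change (flavonoids over untreated) with its 95% interval for the 7 caveolae coat genes (black) and the 4 tested relatives (grey). Filled points are called genes, which are Cav1 and Cav2, and the intervals of Prkcdbp, Pacsin2 and the 4 relatives span 0.

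Per length, the cavins Ptrf and Prkcdbp were the most abundant coat transcripts and Cav2 the least. With flavonoids the order by mean was Prkcdbp (183 FPKM), Ptrf (166), Ehd2 (74.8), Cav1 (67.5), Pacsin2 (53.1), Sdpr (13.3) and Cav2 (6.45). Prkcdbp and Ptrf, Ehd2 and Cav1, and Sdpr and Cav2 overlapped in their libraries. In untreated cells the order was Ptrf (237 FPKM), Prkcdbp (180.3), Cav1 (169), Ehd2 (92.2), Pacsin2 (47.7), Sdpr (21.6) and Cav2 (16.5). There, Ptrf overlapped with Prkcdbp and Prkcdbp with Cav1, and the other neighbours in the order were apart. Averaged over the 6 libraries, Ptrf lay above 96.6% of all tested genes, Prkcdbp above 96.1%, Cav1 above 93.8%, Ehd2 above 90.8%, Pacsin2 above 85.2%, Sdpr above 63.8% and Cav2 above 52.7%. Cav1 stood at rank 4 with flavonoids and at rank 3 in untreated cells, and its share of the summed FPKM of the 7 genes was 12.0 ± 1.39% with flavonoids and 22.2 ± 2.96% untreated (SD, n = 3 each). The sum itself was 565 ± 53.2 FPKM with flavonoids and 764 ± 69.2 FPKM untreated.

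Ratios within a library do not depend on its depth. The FPKM ratio of Ptrf to Cav1 was 2.15, 2.18 and 3.12 in flavonoids replicates 1, 2 and 3, and 1.70, 1.24 and 1.31 in untreated cells. The groups did not overlap, and the same held for Pacsin2 over Cav1, with 0.790 ± 0.0644 with flavonoids and 0.284 ± 0.0210 untreated (SD, n = 3 each), and for Ehd2 over Cav1, with 0.981, 0.994 and 1.37 with flavonoids and 0.588, 0.493 and 0.567 untreated. These ratios share Cav1 as denominator, so their gaps largely restate its lower level with flavonoids. Prkcdbp over Ptrf was also apart, at 1.18, 1.17 and 0.982 with flavonoids and 0.885, 0.820 and 0.551 untreated. Its denominator Ptrf was lower with flavonoids, while Prkcdbp itself overlapped between the groups. The pair has unlike implied lengths, 1032 and 3238 bases, so the libraries' unlike lean with gene length can enter this ratio. How far it does was not tested. The ratio of Cav1 to Cav2, in contrast, overlapped, at 8.84, 9.20 and 16.1 with flavonoids and 9.76, 11.7 and 9.35 untreated. Flavonoids replicate 3 was the library with the highest ratio for this pair and for Ptrf over Sdpr, at 25.9 against 8.97 and 9.75 in the other flavonoids libraries and 13.2, 10.8 and 9.28 in untreated cells. The less abundant caveolin and cavin were thus low together in that library. Ptrf and Ehd2, at 198 and 86.9 FPKM, were higher in it than in the other flavonoids libraries and below all untreated libraries. What sets the library apart was not tested.

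**Figure D4:**
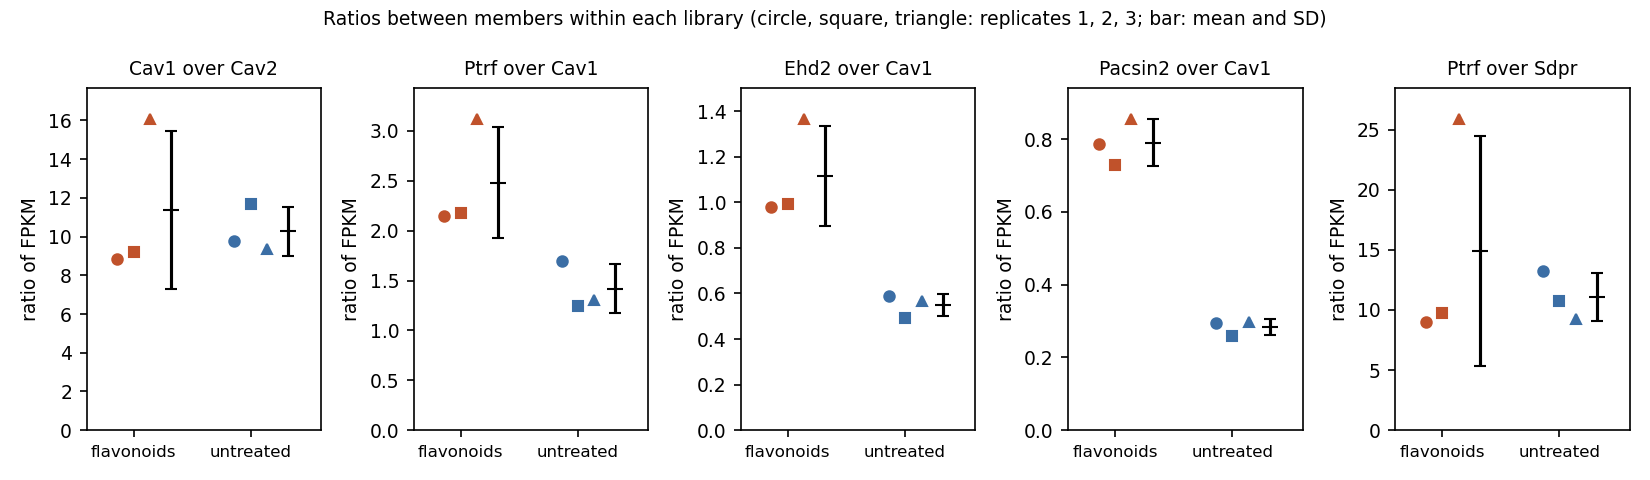
Ratio of the FPKM of 2 coat genes within each library, with flavonoids on the left and untreated on the right and the mean with its SD beside the points (n = 3 each). The ratios of Ptrf, Ehd2 and Pacsin2 to Cav1 do not overlap between groups, and the triangle of flavonoids replicate 3 stands above all other libraries for Cav1 over Cav2 and Ptrf over Sdpr.

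None of the other genes of the same families was called. Cav3, the muscle caveolin, and Pacsin1, a syndapin of nerve cells, are listed at 0 in all 6 libraries, and Murc (Cavin4), the muscle cavin, reached at most 0.136 FPKM. Of 7 relatives, 4 were tested, with 0 lower and 0 higher, beside 5.13% lower and 4.86% higher of all tested genes. The median log2 change of the 4 was -0.07. Ehd3, which works in endosomal recycling, was about as abundant as Ehd2. It measured 75.1 ± 8.41 FPKM with flavonoids and 85.8 ± 9.94 FPKM untreated (SD, n = 3 each, limma adjusted p = 0.411). Ehd4 measured 19.6 ± 0.649 FPKM with flavonoids and 19.8 ± 0.868 FPKM untreated, and Ehd1 2.90 ± 0.195 FPKM with flavonoids and 2.84 ± 0.383 FPKM untreated (limma adjusted p = 0.943 and 0.927). Pacsin3 measured 36.2 ± 2.45 FPKM with flavonoids and 39.7 ± 3.64 FPKM untreated (limma adjusted p = 0.525). EHD and syndapin genes are paralogs, and reads of stretches they share may have been split between them.

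Other endocytic coats and the partners of caveolae were described by related lists. Of 87 genes in 8 related lists, the relatives and chromosome 6 neighbours included, 72 were tested, of which 3 were lower and 3 higher. Over all tested genes 5.13% were lower and 4.86% higher, and these counts lie near that. Of 17 tested genes of the clathrin coat and its adaptors, and of 8 of membrane bending and fission, 0 were called in either direction, with median log2 changes of -0.04 and -0.10. The clathrin heavy chain gene Cltc measured 55.3 ± 11.3 FPKM with flavonoids and 52.4 ± 9.11 FPKM untreated (limma adjusted p = 0.848). Dnm2, the dynamin that cuts pits from the membrane, measured 58.8 ± 6.79 FPKM with flavonoids and 49.1 ± 6.62 FPKM untreated (limma adjusted p = 0.282). Of 9 genes linking caveolae to actin, 0 were called, among them the filamin gene Flna with a log2 change of 0.24 (limma adjusted p = 0.49).

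Of 6 tested flotillin and stomatin genes, which mark other cholesterol-rich membrane domains, 1 was lower and 1 higher. Stom, the membrane protein stomatin, fell to 14.7 ± 2.02 FPKM with flavonoids, against 25.3 ± 2.99 FPKM untreated (SD, n = 3 each; log2 change -0.74, SE 0.14, limma adjusted p = 0.0154). Erlin1, a raft-like domain protein of the endoplasmic reticulum, rose to 23.0 ± 3.03 FPKM with flavonoids, against 15.5 ± 0.466 FPKM untreated (log2 change 0.53, limma adjusted p = 0.0332). Flot2, a flotillin, measured 57.3 ± 5.08 FPKM with flavonoids and 65.9 ± 0.667 FPKM untreated (limma adjusted p = 0.285).

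Of 15 tested receptors, kinases and channels reported at caveolae, 1 was lower and 1 higher. Trpv4, a stretch- and osmosensitive calcium channel, fell to 1.73 ± 0.241 FPKM with flavonoids, against 3.35 ± 0.344 FPKM untreated (SD, n = 3 each; log2 change -0.67, SE 0.14, limma adjusted p = 0.0218). Gja1, the gap junction protein connexin 43, rose to 3.80 ± 0.328 FPKM with flavonoids, against 1.85 ± 0.214 FPKM untreated (log2 change 0.75, limma adjusted p = 0.0134). The insulin receptor gene Insr measured 6.25 ± 0.913 FPKM with flavonoids and 7.48 ± 2.98 FPKM untreated (limma adjusted p = 0.693). Of 9 genes listed under turnover of caveolin, 1 was lower and 0 were higher. The lower one was Zfand6, a zinc finger protein whose link to caveolin was not tested. It fell to 26.6 ± 4.34 FPKM with flavonoids, against 41.1 ± 4.63 FPKM untreated (log2 change -0.62, limma adjusted p = 0.0363). Each of the 6 called genes lost its call under some of the other settings, and the number called in the 8 lists was 0 without flavonoids replicate 1, flavonoids replicate 2 or untreated replicate 2, 3 without flavonoids replicate 3 and 12 without untreated replicate 1. Stom was called in 17 of 20, Erlin1 and Zfand6 in 14 of 20, St7 in 13 of 20, Gja1 in 14 of 19 and Trpv4 in 13 of 19.

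Likeness to Cav1 and Ptrf was measured as the root mean square distance between log2(FPKM + 1) profiles over the 6 libraries, each centred on its own mean, among 7275 genes averaging 5 FPKM or more. The 5 genes nearest to Cav1 were Pdp1 (distance 0.09), a phosphatase that activates pyruvate dehydrogenase, Ckap2 (0.12), a microtubule-associated protein, Fst (0.14), the activin-binding protein follistatin, Ppp1r3c (0.15), a glycogen-targeting subunit of protein phosphatase 1, and Lrrc17 (0.15). Pdp1 measured 6.41, 6.90 and 5.32 FPKM with flavonoids and 13.6, 16.8 and 15.8 FPKM in untreated cells. Among the coat genes, Cav2 was at rank 48 from Cav1 (distance 0.25), Sdpr at rank 355 (0.41) and Ptrf at rank 550 (0.45). The genes nearest to Ptrf were Tubb2a (0.05), a beta tubulin, Anxa6 (0.06), a calcium-dependent membrane-binding annexin, Slc9a3r2 (0.06), a scaffold protein, Cdc42ep4 (0.07), an effector of Cdc42, and Pfkl (0.07), the liver phosphofructokinase. Anxa6 measured 91.3, 103 and 131 FPKM with flavonoids and 157, 154 and 151 FPKM in untreated cells. Ehd2 was the coat gene nearest to Ptrf, at 0.14 and rank 131. These genes were picked for the same 6 values, so their own differences between groups are a description.

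The label adipocytes was checked against markers. Of 15 adipocyte markers 6 averaged 1 FPKM or more, of which 0 were called, with a median log2 change of 0.19. Fabp4, a fatty acid carrier, measured 170 ± 22.5 FPKM with flavonoids and 219 ± 38.1 FPKM untreated, and Lpl, lipoprotein lipase, 262 ± 73.0 FPKM with flavonoids and 163 ± 25.3 FPKM untreated (SD, n = 3 each), so the estimates of these markers had both signs. The list summed to 378 to 544 FPKM with flavonoids and 412 to 434 FPKM untreated. Pparg averaged 11.6 FPKM with flavonoids and 10.8 FPKM untreated, and Cebpa 5.82 and 7.18 FPKM. Lipe averaged 10.2 and 8.14 FPKM and Plin4 18.4 and 14.3 FPKM, in the same order. The other 9 of the 15 averaged under 1 FPKM, among them Adipoq, Plin1, Cd36, Slc2a4 and Lep, which were below 1 FPKM in all libraries. All 8 fibroblast and preadipocyte markers averaged 1 FPKM or more. Their summed level, most of it Vim, Col1a2, S100a4 and Col1a1, ran from 4484 to 4950 FPKM with flavonoids and from 6264 to 6607 FPKM untreated. Of the 8 markers 2 were called lower and 0 higher, beside 5.13% lower and 4.86% higher of all tested genes. Pdgfrb alone had a positive log2 change (0.16), with 104 ± 10.7 FPKM with flavonoids and 94.1 ± 20.7 FPKM untreated. Thy1, a surface protein of fibroblasts, fell to 137 ± 9.32 FPKM with flavonoids, against 215 ± 4.68 FPKM untreated (limma adjusted p = 0.0118), and S100a4 fell to 975.4 ± 23.9 FPKM with flavonoids, against 1709 ± 403 FPKM untreated (limma adjusted p = 0.0429). The part of this difference in the levels of the coat genes was not tested. Endothelial markers, of a cell type rich in caveolae, summed to 1.57 to 1.97 FPKM with flavonoids and 2.18 to 3.07 FPKM untreated, with Cdh5, Kdr and Tie1 listed at 0 in all 6 libraries and Plvap as the only one of 8 above a mean of 1 FPKM. Muscle markers summed to 4.90 to 5.75 FPKM with flavonoids and 6.04 to 8.16 FPKM untreated, nearly all of it Des, with Myod1 and Ckm listed at 0. Macrophage and leukocyte markers summed to 1.92 to 2.62 FPKM with flavonoids and 1.87 to 3.50 FPKM untreated, with Ptprc listed at 0.

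Whole fragments recovered from the FPKM steps summed to between 21951618 and 26355444 per library, and the coat genes rested on 269 to 18218 fragments each. Spread between libraries was far above counting noise, with a chi-square per degree of freedom of 5.86 to 104 within groups. Flavonoids replicates 1 and 2 were the closest pair, and flavonoids replicate 3 differed from them by 35.4 and 32.5. Untreated replicates 1 and 3 were the most different pair, at 104, and untreated replicate 2 differed from them by 24.4 and 39.7. Cav1 was called in all 20 other settings and Cav2 in 18, Ptrf in 5, Sdpr in 2, Ehd2 in 1, and Prkcdbp and Pacsin2 in 0.

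**Figure D5:**
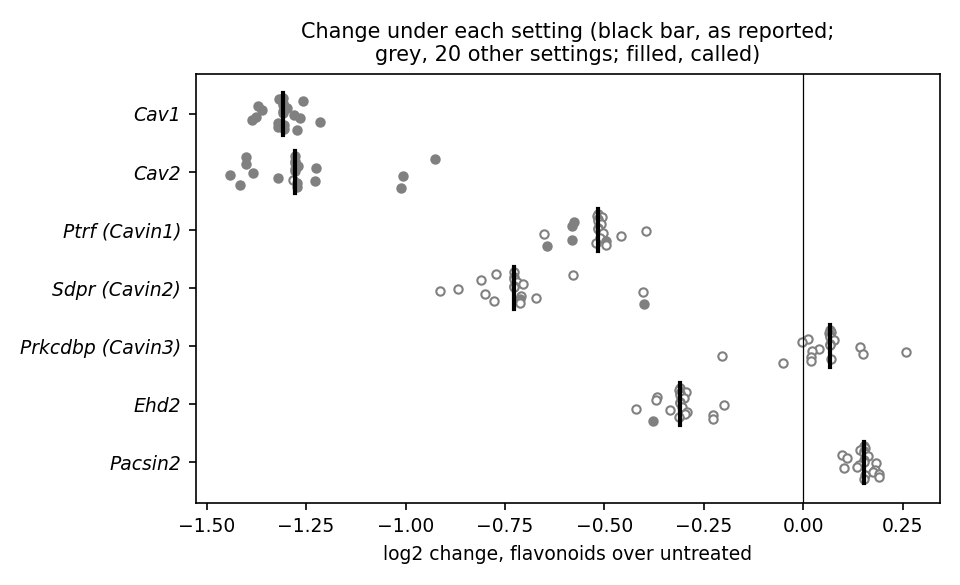
Fitted log2 change (flavonoids over untreated) of each coat gene as reported (black bar) and under 20 other settings (grey points, filled where called). Cav1 stays between -1.39 and -1.22 and Cav2 between -1.44 and -0.93, while Prkcdbp lies on both sides of 0.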

How the data were processed

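RNA of 6 samples was sequenced, and the table deposited by the authors holds FPKM, 1 column per sample, all used. Per the labels' protocols, RNA was extracted with TRIzol and libraries were made with a TruSeq kit. Per the submitters' processing notes, FastQC and HISAT2 were used with build mm10, while counter, annotation and strand setting were not given in those sources. Changes in log2(FPKM + 1) were fitted in R 4.3.3 by limma 3.58.1, trended on intensity, for 11464 genes averaging 1 FPKM or more, two-sided, with Benjamini-Hochberg adjustment over all of them. The scale understates changes of weakly expressed genes. An exact permutation test of 3 against 3 cannot go below 0.1 and was not used.

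Whole fragments were solved from the steps of each gene's FPKM values, for 19570 genes above 0 in at least 2 libraries. A step was accepted only where every value lay within 0.005 fragments of a whole number. That closeness is therefore no check of the recovery. A gene whose fragment numbers share a divisor comes out too low by it. The recovery and the fit were tested on simulated data. The genes and lists were chosen with earlier results of these data known. All coat genes, the relatives, and at most the 4 called genes of smallest p in each other list are named; further genes of the lists were named for their roles after their values were seen, and the 5 nearest profiles leave out unnamed gene models. Alternatives were the replicate block, other pseudocounts (0.1 and 5), omission of the filter, a stricter filter of 5 FPKM, TPM, median-ratio and quantile scaling, variances without trend or robust, each library left out, removal of each library's trend over gene length (loess, span 0.5), and limma's voom on fragments. Python 3.11.15, numpy 2.4.6 and pandas 2.3.3 were used for the rest.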

Additional observations from a re-analysis of the deposited data

How the results depend on the processing

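The call of Cav1 was kept under all 20 other settings. The number of coat genes called lower was 2, and 1 without a filter on low values, 3 on the TPM scale and with quantile normalization, where Ptrf was also called, 4 with the length trend removed and 5 with the length trend removed without flavonoids replicate 3, a setting chosen after seeing the data; it ran from 1 to 3 with a library left out, and 0 were called higher under every setting. Genes called lower over the whole table were 588, and genes called higher 557, with 237 and 220 under the replicate block, 324 and 317 without a filter, 1182 and 1303 with the length trend removed, 971 and 1065 with that and the block (also chosen after seeing the data), 1286 and 1227 with it and without flavonoids replicate 3, and 81 to 833 and 65 to 876 with a library left out. Called genes of the related lists were 6, with 2 under the block, 2 without a filter, 13, 11 and 18 under the same 3 length settings, and 0 to 12 with a library left out. Limma with voom on the recovered fragments called 609 lower and 552 higher. The cause of these shifts was not tested.

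Whether the replicate numbers pair the samples is not known. Same-numbered libraries deviated from their group means with correlations of -0.14, -0.12 and -0.20, and differently numbered ones with -0.09 to 0.17. With means of only 3 libraries per group, these values cannot tell whether same-numbered samples share a culture or batch. The block changed no call of a coat gene.

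Signs turned for Prkcdbp with quantile normalization (-0.0021), without untreated replicate 3 (-0.20, the lowest of -0.20 to 0.26 over the left-out libraries) and with the length trend removed without flavonoids replicate 3 (-0.050), for Ehd1 on the TPM scale (-0.0166) and without untreated replicate 3 (-0.058, the lowest of -0.058 to 0.080 over the left-out libraries), and for Ehd4 with the length trend removed (0.0103, with and without the block) and with a library left out (-0.038 to 0.018). With 3 samples per group the 95% interval of the Pacsin2 change, -0.09 to 0.39, leaves its direction undetermined.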
